A study of Mus musculus with 14 samples.

Results

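The 10 genes described here are Atf4 and 9 genes of the amino acid response that ATF4 is known to control: Ddit3, Trib3, Nupr1, Chac1, Asns, Cth, Phgdh, Psat1 and Slc3a2. They were taken by name from the 25131 rows of the gene count table, and all 10 are rows of it. They were chosen by their Rcor2 knockout against wild-type fold changes in these libraries, so for them that comparison is a description and no p-value is given. RNA was counted in mouse embryonic stem cells (ESCs) of C57BL/6 background, in 2 libraries of Rcor2 knockout (KO) cells and 2 of wild-type (WT) cells. Both groups were grown on gelatin in a serum medium with added non-essential amino acids, leukemia inhibitory factor (LIF), a MEK inhibitor and a GSK3 inhibitor. The other data used are a list of peaks from chromatin immunoprecipitation (ChIP) of RCOR2, a corepressor of the CoREST family, made with an anti-HA resin in cells expressing RCOR2-HA, with WT and mCherry-expressing cells as negative controls. The sources used here do not state which part of Rcor2 was deleted or whether the KO libraries come from more than 1 clone.

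ATF4 is a transcription factor of the bZIP class. When amino acids run short or unfolded proteins gather, kinases phosphorylate the translation factor eIF2, most messages are translated less, and Atf4 mRNA is translated more through short reading frames ahead of its own. ATF4 protein then pairs with factors such as C/EBP proteins and binds a composite element, the C/EBP-ATF response element, in genes for amino acid synthesis, uptake and stress control. RNA counts show the level of Atf4 mRNA and of its targets, not the translation step.

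Promoter sequence shows where that element lies. The letters TGATGNAA, in which N is any base, were searched on both strands from 250 bases before to 50 bases after each RefSeq start in GRCm38.p6; TGATGCAA, used as a stricter form, is a subset of it. A window was given for 9 of the 10 genes, all but Cth, and 4 of these 9 held the letters, against 2.58% of the 8268 tested genes with a window and 3.97% of the 32851 windows of all genes. The 250 bases before the start are printed for 3 of these genes, all of them higher in KO, and 30 bases for Trib3, whose site lies after the start. The site is in capitals, and capitals that begin with TT are the same letters read on the other strand.

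Asns: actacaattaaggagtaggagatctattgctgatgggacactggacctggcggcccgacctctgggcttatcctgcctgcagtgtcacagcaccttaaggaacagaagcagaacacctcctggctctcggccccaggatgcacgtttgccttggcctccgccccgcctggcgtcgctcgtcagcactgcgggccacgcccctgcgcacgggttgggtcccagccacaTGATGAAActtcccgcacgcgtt

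Chac1: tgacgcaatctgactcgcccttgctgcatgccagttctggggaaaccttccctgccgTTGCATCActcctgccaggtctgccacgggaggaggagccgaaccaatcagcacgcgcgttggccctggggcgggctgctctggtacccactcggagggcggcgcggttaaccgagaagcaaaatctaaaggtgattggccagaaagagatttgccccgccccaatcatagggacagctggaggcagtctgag

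Nupr1: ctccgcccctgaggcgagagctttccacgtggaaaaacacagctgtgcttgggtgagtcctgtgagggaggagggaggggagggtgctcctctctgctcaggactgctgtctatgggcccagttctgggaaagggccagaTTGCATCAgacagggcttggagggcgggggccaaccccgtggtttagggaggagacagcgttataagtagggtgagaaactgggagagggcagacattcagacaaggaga

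Trib3: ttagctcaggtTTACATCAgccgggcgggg

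In Asns the site is TGATGAAA at chr6:7693225-7693232, on the strand of the gene and 23 bases before its start. Chac1 held TGATGCAA at chr2:119351049-119351056, 193 bases before the start and on the opposite strand. Nupr1 held the same letters at chr7:126625573-126625580, 110 bases before the start and on the opposite strand. The Trib3 site, TGATGTAA on the opposite strand at chr2:152344039-152344046, began 14 bases after the start. With the stricter letters TGATGCAA the count was 2 of 9 genes, Chac1 and Nupr1, against 0.701% of tested genes. A match is a run of letters in this window and not a measured binding site.

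Of the whole series, these facts bear on the values. Totals were 2951498 and 1974865 counts for KO and 2368804 and 1286393 counts for WT. Rcor2 itself was counted 157 and 103 times in KO and 193 and 107 times in WT, which does not check the genotype without the deleted part. The Y-linked Eif2s3y and Ddx3y were counted 1 time each over the KO libraries, against 98 and 40 times over the WT libraries, and what comes with the loss of Rcor2 and what with other differences between the cells cannot be told apart. Tested genes of chromosomes 6, 8 and 3 had median log2 fold changes (KO over WT) of 0.92, 0.52 and 0.48, and those of chromosome 11 a median of −0.49. Log2 fold changes of the 10 genes are therefore also given centred, with the median of the chromosome taken off. For other tested pathway genes named here, centred values are given on these chromosomes or where the call changed. The 8 pluripotency markers summed to 3722 and 3737 counts for each 1000000 counted (CPM) in KO and 3858 and 3639 CPM in WT. The sums hide single markers that differed at an edgeR adjusted p under 0.05. Nanog was higher in KO (0.48) but lower centred (−0.44), Dppa5a was lower (−0.47, and −0.45 centred), and Sox2 was lower only centred (−0.72). The other markers passed in neither form. Summed markers of fibroblasts (12.5 to 18.5 CPM in KO, 17.6 to 27.98 CPM in WT), primitive endoderm (3.12 to 7.19 CPM in KO, 1.67 to 5.29 CPM in WT) and neural cells (10.6 to 19.2 CPM in KO, 23.4 to 24.2 CPM in WT) were far lower, with Foxa2 and Dcx at 0 in every library. The neural sums were lower in both KO libraries than in both WT libraries. Tubb3 alone was at 9.59 and 16.6 CPM in KO and 17.6 and 9.83 CPM in WT.

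All 10 genes passed the filter on low counts. In KO 6 were higher and 0 lower at an adjusted p under 0.05 (edgeR, adjusted over 10241 tested genes), where 10.4% of all tested genes were higher and 9.3% lower. At an unadjusted p under 0.05, 6 were higher and 1, Ddit3, lower by edgeR, where 15.9% and 15.0% of tested genes were. DESeq2 called 5 higher and 0 lower at an adjusted p, where it called 6.35% of tested genes higher and 4.94% lower. Centred on the chromosome, 6 were higher and 1, Phgdh, was lower, against 6.28% and 6.67% of tested genes. The median log2 fold change of the 10 was 0.85, or 0.67 centred, and that of all tested genes −0.02. Both KO libraries lay above both WT libraries for 6 of the genes and below them for 1, which was so for 28.1% and 28.8% of tested genes. These shares, and the calls and counting intervals given below for single genes of the 10, describe genes that were proposed with the contrast known. Nothing is read from them as a test.

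**Figure D1:**
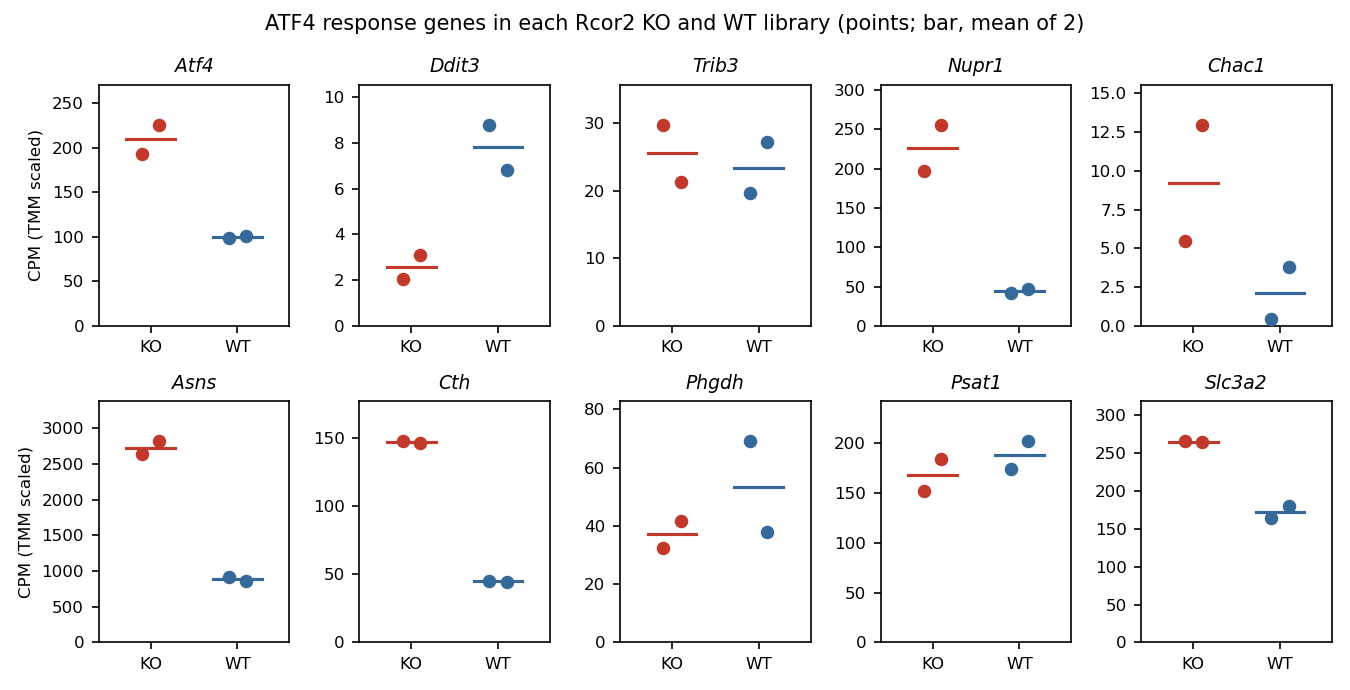
TMM-scaled CPM (y axis, from 0, a separate scale for each gene) of the 10 genes in each KO library (left) and WT library (right), as points with a bar at the mean of 2. The KO points lie above the WT points for Atf4, Nupr1, Chac1, Asns, Cth and Slc3a2 and below them for Ddit3, and overlap for Trib3, Phgdh and Psat1.

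Atf4, the regulator of the group, was at 193 and 226 CPM in the KO libraries, against 98.3 and 101 CPM in the WT libraries. The groups do not overlap, and the WT libraries lie close together. The log2 fold change was 1.07 (SE 0.18), a 2.095-fold higher level, and 1.07 centred on chromosome 15. In bulk RNA a change in the share of cells that make a message and a change in RNA per cell cannot be told apart.

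Of the transcription factors and regulators that act after ATF4, Nupr1 was called higher, while Ddit3 and Trib3 were not called. Nupr1, a small stress-induced chromatin protein, was at 197 and 256 CPM in KO and at 41.4 and 46.9 CPM in WT. Every KO value was above every WT value, with a log2 fold change of 2.36 (SE 0.20), and 2.38 centred on chromosome 7. That is a 5.15-fold higher level. RefSeq places the noncoding gene Gm39087 over Nupr1, and the sources used here do not state whether counting used strand, so reads of that gene could be among these counts.

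Ddit3, which encodes CHOP, the factor tied to cell death under lasting stress, was counted 6 and 6 times in KO (2.06 and 3.12 CPM) and 21 and 9 times in WT (8.79 and 6.81 CPM). Both KO values lie below both WT values. The summed counts per depth were 0.307 times as high in KO, with an exact 95% interval of 0.143 to 0.617 that covers counting error only. The fitted log2 fold change of −1.62 (SE 0.75), or −1.61 centred on chromosome 10, was not past the threshold. Ddit3 shares its interval with Mars and Mbd6, which were counted 146 and 108, and 64 and 30 times in KO and 144 and 77, and 20 and 15 times in WT.

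Trib3 encodes a pseudokinase that ATF4 and CHOP induce and that in turn restrains ATF4. It was at 29.8 and 21.3 CPM in KO and at 19.7 and 27.2 CPM in WT. The groups overlap, and the log2 fold change was 0.16 (SE 0.36), or 0.23 centred on chromosome 2. Its sign turned without KO replicate 1 (−0.12) and without WT replicate 1 (−0.06).

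Chac1, an enzyme that breaks down glutathione, was counted 16 and 25 times in KO and 1 and 5 times in WT, or 5.48 and 12.98 CPM against 0.418 and 3.78 CPM. The KO values lie above the WT values, on few counts. The summed counts per depth were 5.24 times as high in KO, with a 95% counting interval of 2.21 to 15.1, and the fitted log2 fold change was 2.33 (SE 0.84), 2.40 centred. The fitted value was 1.62 without KO replicate 2 and 1.25 without WT replicate 1, neither past the threshold, and 4.27 without WT replicate 2. It was not past the threshold either by DESeq2 (2.28), limma-voom (2.60) or with library size alone (2.27).

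Among those of the 10 that encode enzymes making amino acids, Asns and Cth were higher in KO, while Phgdh and Psat1, of serine synthesis, were not. Asns, asparagine synthetase, was counted 7712 and 5431 times in KO and 2189 and 1147 times in WT, the deepest counts of the 10 genes. This was 2642 and 2820 CPM in KO and 916 and 867 CPM in WT. The groups stand far apart compared with the spread inside each, with a log2 fold change of 1.61 (SE 0.14), or 3.06-fold. Asns lies on chromosome 6, and centred on its median of 0.92 the value was 0.70 (SE 0.14), or 1.62-fold.

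Cth, cystathionine gamma-lyase of the transsulfuration route to cysteine, was at 148 and 146 CPM in KO, against 45.2 and 44.6 CPM in WT. The libraries of each group nearly coincide. The log2 fold change was 1.71 (SE 0.22), and 1.23 (SE 0.21) centred on chromosome 3.

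Phgdh and Psat1 encode enzymes of the serine pathway, Phgdh the entry step from glycolysis. Phgdh was at 32.5 and 41.5 CPM in KO and at 69.0 and 37.8 CPM in WT. The groups overlap, since WT replicate 2 lies between the KO libraries and WT replicate 1 above all others. The log2 fold change of −0.57 (SE 0.29) was not past the threshold, and centred on chromosome 3 it was −1.05 (SE 0.29), past it. Without WT replicate 1 it was −0.02, and without WT replicate 2 it was −0.91 and past the threshold, so WT replicate 1 sets its size. RefSeq lists the pseudogene Phgdh-ps1, and reads shared with it are uncertain. Psat1 was at 152 and 184 CPM in KO and at 174 and 202 CPM in WT, which overlap. Its log2 fold change was −0.16 (SE 0.17), or −0.14 centred on chromosome 19.

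Slc3a2, the heavy chain that pairs with light chains to carry amino acids across the cell membrane, was at 266 and 264 CPM in KO and at 164 and 181 CPM in WT. The groups do not overlap. The log2 fold change was 0.62 (SE 0.16), and 0.65 centred on chromosome 19. Without KO replicate 1 (0.62) or KO replicate 2 (0.63) it was not past the threshold.

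**Figure D2:**
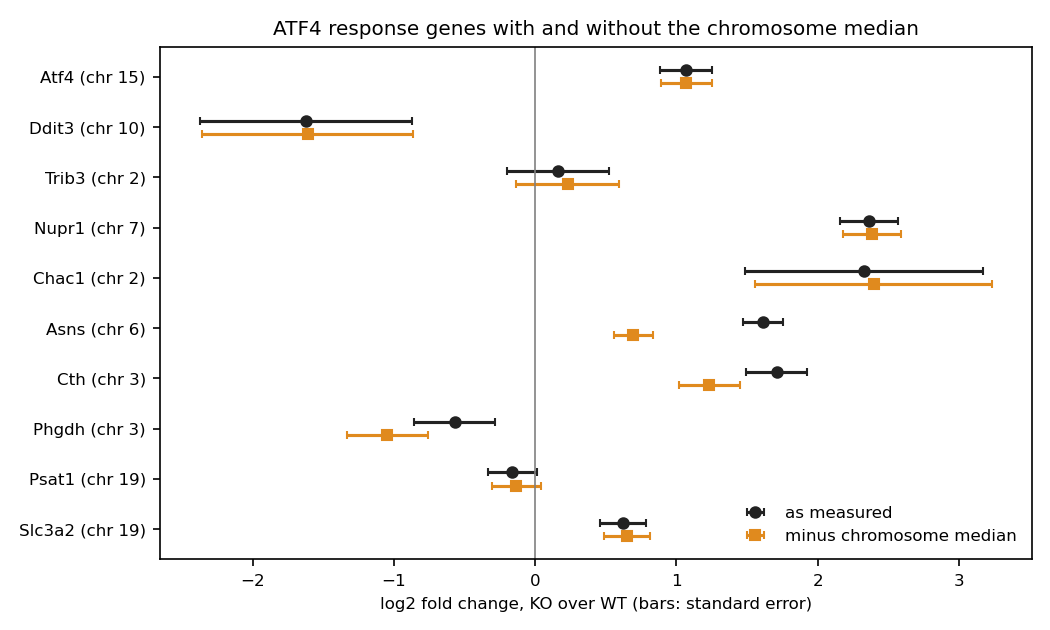
Log2 fold change of KO over WT (x axis) for each of the 10 genes, as measured (circles) and minus the median of its chromosome (squares), with bars of 1 standard error. Centring lowers Asns on chromosome 6 to 0.70 and Cth on chromosome 3 to 1.23, and takes Phgdh on chromosome 3 to −1.05, while the other 7 genes move by less than 0.1.

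The wider pathway was read from 7 lists of 92 genes, none of them among the 10, of which 84 were tested. These lists were also chosen with earlier results of these data known, so their calls and p-values are not an independent test. In KO 16 were higher and 12 lower (edgeR), where 10.4% and 9.3% of all tested genes were called. Their median log2 fold change was 0.18, or 0.10 centred, and that of all tested genes −0.02. Of the 16 higher genes 9 lie on the upshifted chromosomes 3, 6 and 8, as do 574 of the 1062 higher genes among all those tested. With chromosomes centred 11 were higher and 6 lower, against 6.28% and 6.67% of all tested genes. By DESeq2 13 were higher and 6 lower, against 6.35% and 4.94%. The counts of single lists below are to be set beside these same shares.

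**Figure D3:**
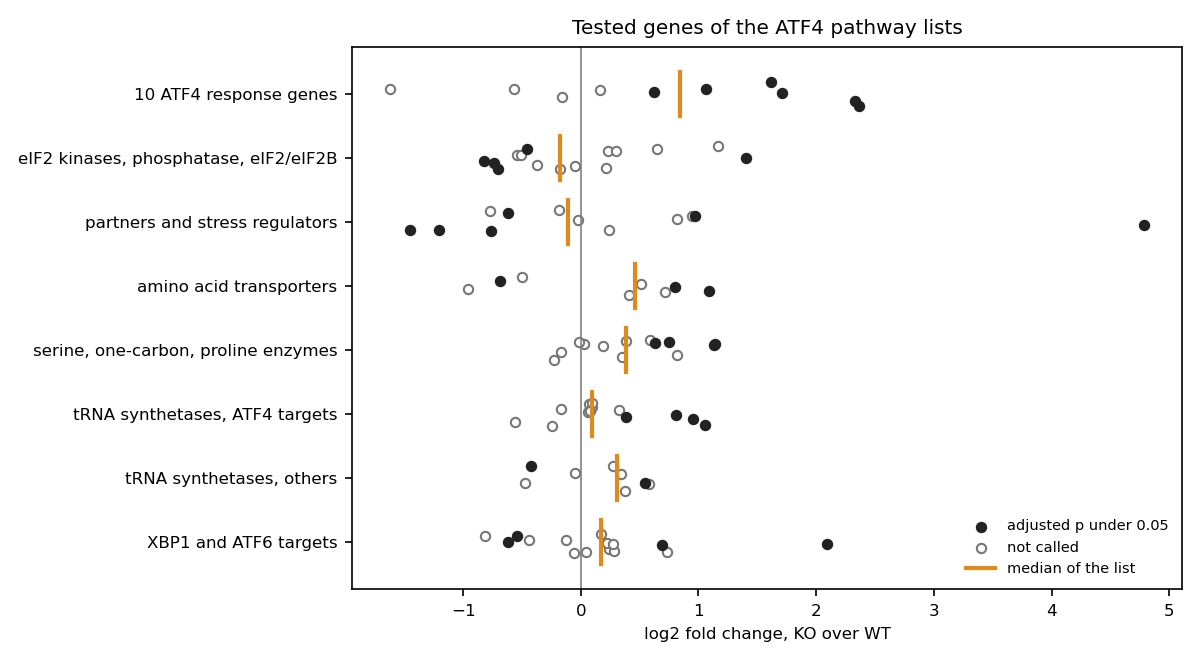
Log2 fold change of KO over WT (x axis) for the tested genes of each list (rows), filled where the edgeR adjusted p was under 0.05 and open otherwise, with a bar at the median of the list. The ATF4 response genes have the highest median, 0.85, and were chosen with these values known. The other lists were also chosen with earlier results of these data known. Their medians run from −0.18 for the upstream genes to 0.46 for amino acid transporters. Centred medians, which are not drawn, run from −0.14 for the upstream genes to 0.26 for the biosynthesis enzymes. That of the transporters is 0.10 centred.

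Upstream of ATF4, 1 of 15 genes rose and 4 fell (edgeR), against 10.4% and 9.3% of all tested genes. With chromosomes centred 3 of the 15 were lower, and by DESeq2 also 3. Ppp1r15a, the stress-induced subunit that directs a phosphatase to eIF2 and ends the response, rose to 48.3 and 67.0 CPM in KO, against 18.4 and 25.7 CPM in WT (log2 fold change 1.41, SE 0.31; edgeR, adjusted p = 0.000496). Eif2b3 (−0.82, SE 0.21) and Eif2b4 (−0.70, SE 0.19), subunits of the exchange factor that recharges eIF2, fell, as did Impact, an inhibitor of the kinase GCN2 (−0.74, SE 0.19; edgeR, adjusted p = 0.00391). The Eif2b3 call was lost without KO replicate 2 (−0.76), that of Impact without KO replicate 2 (−0.71) or WT replicate 2 (−0.40), and that of Eif2b4 without KO replicate 1 (−0.40) or WT replicate 1 (−0.57) and by DESeq2 (−0.69). The other gene called lower was Eif2s2, a subunit of eIF2 itself (−0.45, SE 0.14), which was at −0.39 and not called with its chromosome centred; it was named after its values were seen. None of the 4 genes for eIF2 kinases was called (edgeR, adjusted p from 0.181 to 0.652). The log2 fold change was −0.54 (SE 0.33) for Eif2ak1, −0.51 (SE 0.27) for Eif2ak2 and 0.23 (SE 0.29) for Eif2ak4, which encodes GCN2. It was 1.16 (SE 0.69), and 0.25 centred on chromosome 6, for Eif2ak3, which encodes PERK. Eif2ak3 was counted only 22 and 21 times in KO and 14 and 2 times in WT, and its value was 2.56 without WT replicate 1 and 0.63 without WT replicate 2.

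Among 16 partners and further stress regulators 12 were tested, and 2 rose and 4 fell (edgeR), against 10.4% and 9.3% of all tested genes. Both on centring and by DESeq2, 2 of the 12 were higher and 2 lower. Atf3, a stress-induced bZIP factor, was counted 18 and 23 times in KO and 1 and 0 times in WT. Its summed counts per depth were 31.4 times as high in KO (95% counting interval 5.33 to 1271; edgeR, adjusted p = 0.000980). The fitted log2 value was 7.20 without WT replicate 1, which leaves no WT count, and 4.25 without WT replicate 2. TGATGCAA lay in the windows of 4 of the 14 genes of this list with a window, against 0.701% of tested genes. These were Atf3, 110 bases before its start, Jdp2, which was not called, and Fgf21 and Vldlr, which were not tested. Eif4ebp1, a translation inhibitor, rose to 2180 and 2177 CPM in KO, against 1201 and 1022 CPM in WT, which is 0.97 on the log2 scale (SE 0.14; 0.45 centred on chromosome 8; edgeR, adjusted p = 3.78e-07). Klhl24 fell by 1.45 on the log2 scale (SE 0.28; edgeR, adjusted p = 6.76e-05). Cebpg, a bZIP partner of ATF4, fell by 1.20 (SE 0.44; edgeR, adjusted p = 0.0448) and Sesn2, a leucine sensor that restrains mTORC1, by 0.76 (SE 0.26; edgeR, adjusted p = 0.0262). The Cebpg call was lost with chromosomes centred (−1.19), without KO replicate 1 (−1.51), KO replicate 2 (−0.99) or WT replicate 2 (−0.65), and that of Sesn2 without KO replicate 2 (−0.47) or WT replicate 2 (−0.44). DESeq2 called neither.

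Of 11 amino acid transporters 8 were tested, of which 2 rose and 1 fell (edgeR), against 10.4% and 9.3% of all tested genes. Slc7a1, which carries cationic amino acids, was at 73.0 and 101 CPM in KO and 35.6 and 46.9 CPM in WT (log2 fold change 1.09, SE 0.25; edgeR, adjusted p = 0.000873). Slc1a5, a glutamine carrier, was at 211 and 219 CPM in KO and 120 and 128 CPM in WT (0.80, SE 0.17; edgeR, adjusted p = 0.000470). Slc38a2, an adaptive carrier of neutral amino acids, fell to 107 and 105 CPM in KO, against 177 and 163 CPM in WT (−0.69, SE 0.18; edgeR, adjusted p = 0.00441). These 3 directions held with chromosomes centred. The Slc7a1 call was lost without KO replicate 2 (0.84) and that of Slc38a2 without either KO library (−0.70 and −0.68).

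Of 14 enzymes of serine, one-carbon, proline, aspartate and transsulfuration metabolism 13 were tested. Of these 4 rose and 0 fell by edgeR, against 10.4% and 9.3% of all tested genes (also 0 lower at an unadjusted p and by DESeq2). With chromosomes centred 2 were higher, and by DESeq2 also 2. Cbs, the enzyme ahead of Cth in transsulfuration, was at 32.2 and 30.6 CPM in KO, against 15.9 and 12.1 CPM in WT (log2 fold change 1.14, SE 0.38; edgeR, adjusted p = 0.0246). Its call was lost by DESeq2 (a log2 fold change of 1.15), without either KO library (1.10 and 1.17) and without WT replicate 2 (0.98). Mthfd2, a mitochondrial folate enzyme, rose by 1.13 (SE 0.17) and Mat2a, which makes S-adenosylmethionine, by 0.75 (SE 0.14). Both lie on chromosome 6, and centred they were at 0.21 and −0.17 and not called.

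The aminoacyl-tRNA synthetases, which load amino acids onto tRNA, were split. Of the 13 described as ATF4 targets, with the tRNA exporter Xpot, 4 rose and 0 fell by edgeR, against 10.4% and 9.3% of all tested genes (also 0 lower at an unadjusted p and by DESeq2). Sars, for serine, rose by 1.05 (SE 0.16), Aars, for alanine, by 0.96 (SE 0.15) and Gars, for glycine, by 0.81 (SE 0.15; edgeR, adjusted p = 3.72e-05). These 3 genes lie on chromosomes 3, 8 and 6, and centred Sars was at 0.57 and Aars at 0.44, still called, while Gars was at −0.11 and not called. The median of the list was 0.10. Of the 8 other cytosolic synthetases, Kars rose by 0.54 (SE 0.16) and Rars was at −0.43 (SE 0.16; edgeR, adjusted p = 0.0479). Both calls were lost with chromosomes centred (0.03 and 0.06), where Rars changed sign, and by DESeq2 (0.55 and −0.42). The Kars call was lost without KO replicate 1 (0.33) or WT replicate 2 (0.42) and that of Rars without any of the 4 libraries (−0.49 to −0.36). The letters TGATGNAA lay in the windows of 5 of 9 genes of the first list and of 0 of 5 of the second, against 2.58% of tested genes. Of these 5, Aars and Gars were called higher, while Iars, Tars and Yars were not called. The other lists held them in 0 of 12 upstream genes, 4 of 14 partners, 2 of 7 transporters, 2 of 11 biosynthesis enzymes and 1 of 13 XBP1 and ATF6 targets. Over all 7 lists it was 14 of 71 genes with a window, and 4 of the 12 such genes called higher.

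Of 15 targets of the other arms of the unfolded protein response, which run through XBP1 and ATF6, 2 rose and 2 fell (edgeR), against 10.4% and 9.3% of all tested genes. With chromosomes centred 1 was higher and 0 lower, and by DESeq2 2 were higher and 0 lower (4 lower by edgeR at an unadjusted p). Herpud1, a factor in protein disposal from the endoplasmic reticulum that ATF4 is also known to induce, was at 40.1 and 46.2 CPM in KO, against 13.4 and 5.29 CPM in WT. Its log2 fold change was 2.09 (SE 0.38; 1.58 centred on chromosome 8; edgeR, adjusted p = 3.19e-05), and 3.03 without WT replicate 1. Pdia4, a disulfide isomerase, was at 0.69 (SE 0.17), but at −0.23 centred on chromosome 6 and not called, and its call was lost without KO replicate 2 (0.53). Sdf2l1 (−0.62, SE 0.22) and Xbp1 (−0.54, SE 0.18) were lower and neither was called with chromosomes centred (−0.46 and −0.05) or by DESeq2. The Sdf2l1 call was lost without KO replicate 1 (−0.68), KO replicate 2 (−0.57) or WT replicate 2 (−0.51), and that of Xbp1 without any of the 4 libraries (−0.58 to −0.50).

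RCOR2 peaks lay within 10 kb of all 10 genes, and of 88.7% of tested genes. A peak this near is thus the usual state of a tested gene in this list. There were 24 such peaks, from 1 to 5 a gene, with a median fold over control of 4.15 and a median −log10 q of 4.46; over all 53366 peaks these were 4.38 and 5.08. With peaks of a −log10 q of at least 5, 6 of the 10 genes had a peak, against 70.2% of tested genes. The fold and q values are the authors' own, from a list called on merged libraries, so they have no replicate error.

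The strongest and widest of the 24 peaks covered the start of Asns, at chr6:7692848-7694443, with a summit 690 bases before the start, a fold of 6.67 and a −log10 q of 11.6, above 87.3% of all peaks. It is 1596 bases wide, against a median of 260, and it contains the site printed in capitals above. Cth had a peak at chr3:157925611-157925837, 651 bases outside its interval, with a fold of 5.98 and a −log10 q of 9.00. Chac1 had a peak with its summit 303 bases before the start (chr2:119350766-119351034, fold 5.30), which ended short of its TGATGCAA, and a weak peak after the start (2.83). At Trib3 a peak of 4.38-fold with its summit 70 bases before the start (chr2:152343820-152344347) contained its site. A stronger Trib3 peak, of 5.07-fold and a −log10 q of 6.64, had its summit 5211 bases outside the gene interval.

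Atf4 had a peak of 3.69-fold with its summit 260 bases after the start and 2 more 9082 and 9496 bases after it. The single peak at Nupr1, 500 bases after the start, had a fold of 3.32 and was above 4.99% of all peaks. Ddit3 had 3 peaks before its start, at 200, 1064 and 1507 bases, of 3.18-fold, 4.84-fold and 5.07-fold. Phgdh had 4 peaks of at most 4.38-fold, Psat1 2 of at most 4.15-fold, and Slc3a2 5 of at most 5.30-fold. A peak overlapped the promoter window of 6 of the 9 genes with a window, against 52.4% of tested genes, and these 6 include Ddit3, Trib3 and Psat1, which were not called in KO, as well as Asns, Chac1 and Slc3a2.

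**Figure D4:**
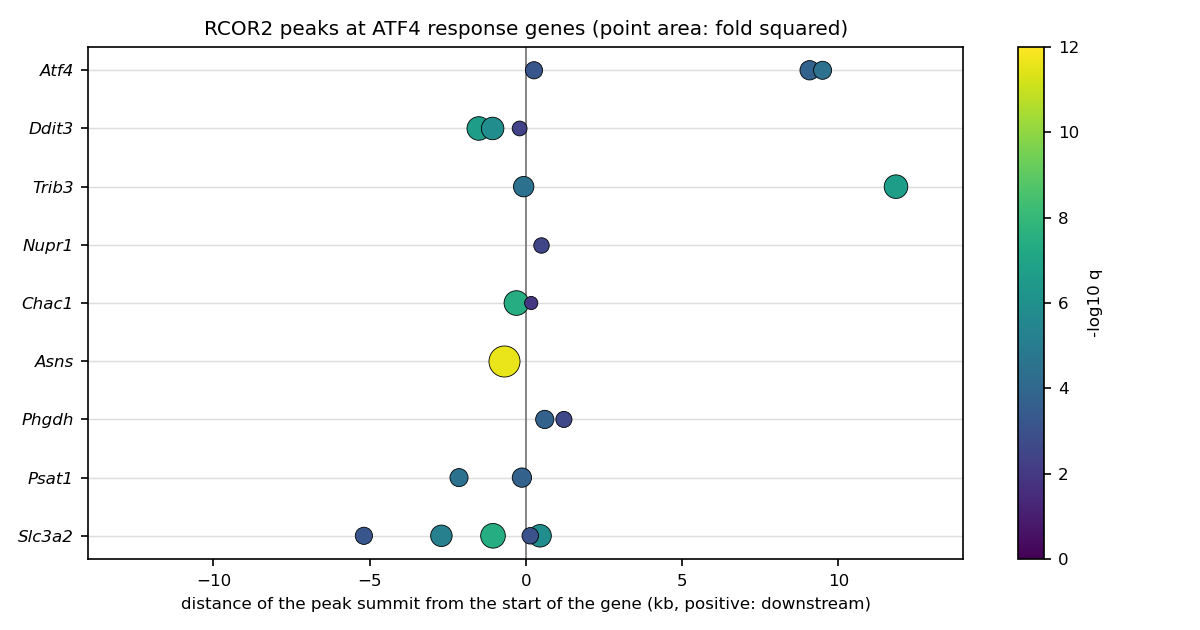
Distance of each RCOR2 peak summit from the start of its gene (x axis, kb, positive downstream), with point area set by the fold squared and colour by −log10 q. The Asns peak, 690 bases before the start, is the strongest at a −log10 q of 11.6; Cth, which has no window, and the Phgdh peaks 32226 and 36052 bases after the start are not drawn.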

How the data were processed

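The samples analysed were the 2 KO and 2 WT RNA-seq libraries and the RCOR2 ChIP peak list; the other samples of the 14 were not analysed here. RNA values are raw counts per gene symbol as the authors deposited them. STAR 2.5.2b, Trimmomatic 0.36, featureCounts and Subread stand in the submitters' processing notes, with builds GRCm38 and mm10 and no roles. The sources used here do not state molecular identifiers, strand or the handling of shared reads. Each peak has a fold ratio over control and a −log10 q as the authors deposited them; Bowtie2 2.3.4.1 and MACS2 2.1.1.20160309 stand in the same notes, and the control used is not stated.

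The test was edgeR's quasi-likelihood test (edgeR 4.0.16, R 4.3.3), two-sided, of KO over WT, with TMM scaling, the 10241 genes kept by filterByExpr and Benjamini-Hochberg adjustment over all of them. Genes with an adjusted p under 0.05 were called. A standard error is the log2 fold change divided by the root of F. CPM are TMM-scaled counts per 1000000. For centred values the median log2 fold change of the chromosome entered the fit as an offset. The fit was tested on simulated data. Alternatives were DESeq2 1.42.0, limma-voom (limma 3.58.1), other scalings, no filter, a replicate block and leaving out each library.

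Positions and promoter sequences are from RefSeq on GRCm38.p6, which placed 25027 of the 25131 rows; 26 rows hold a date where a symbol should be and were not named. Of the listed genes 19 were matched through an older symbol. The 10 genes and the pathway lists were chosen with earlier results of these data known. From each list the text names up to 3 called genes in each direction with the largest change, and the 4 eIF2 kinase genes in any case. The labels do not call replicates separate cultures, so the p-values rest on a spread between libraries that may be technical. Chi-square divided by degrees of freedom between replicates was 4.22 in KO and 4.79 in WT, above the 1 of sampling noise.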

Additional observations from a re-analysis of the deposited data

How the results depend on the processing

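Over 441 refits of 38 named genes, 373 kept the direction and the side of the threshold. Signs turned for Trib3, which was never called, without KO replicate 1 (−0.12) and without WT replicate 1 (−0.06; −0.12 to 0.39 over the 4 libraries left out), and on centring for Mat2a (−0.17), Gars (−0.11), Pdia4 (−0.23) and Rars (0.0592), by construction of the chromosome offset. Of the 10 ATF4 response genes 4 to 6 were called higher under every alternative; the count of 4 with chromosomes 3, 6, 8 and 11 left out lacks Asns and Cth, which lie there, and without KO replicate 2 it was also 4. The number called lower was 1 with chromosomes centred and 0 to 1 with a library left out. Of the other pathway genes 7 were higher and 6 lower with those chromosomes left out, 6 were lower with DESeq2 and 6 with chromosomes centred, and 4 to 11 were lower with a library left out (5 without KO replicate 1, 4 without KO replicate 2 and 7 without WT replicate 2). The fits with DESeq2 and with chromosomes centred used all 10241 genes and all 4 libraries. The cause of these differences was not tested. Over all tested genes, 1062 were higher and 952 lower; DESeq2 called 650 and 506, centring 643 and 683, the fit without those chromosomes 470 and 480, and fits without a library 616 to 948 and 495 to 790. Peaks with a −log10 q of at least 5 lay within 10 kb of 6 of the 10 genes, against 70.2% of tested genes. Peaks of at least 5-fold also lay near 6, against 57.2% of tested genes. The letters TGATGCAA, an alternative chosen after seeing the data, were in 2 windows in place of 4.

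The replicate numbers are shared by KO and WT, but the labels do not say that a number marks a shared batch, and deviations of same-numbered libraries had a correlation of −0.05. With the replicate block 6 of the 10 genes were again higher and 0 lower, 15 and 8 of the other pathway genes and 969 and 853 of all tested genes; Cebpg (−1.15), Rars (−0.43) and Sdf2l1 (−0.62) were not called. Depth limits Chac1, Ddit3, Atf3 and Eif2ak3, with at most 25 counts in a library. Slc7a11, Fgf21 and the other 6 listed genes that were not tested had too few counts.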
